A study of Mus musculus with 12 samples.

Results

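The acetylcholine receptor and neuromuscular junction genes were followed on bead arrays of C2C12, a mouse myoblast cell line whose cells fuse into myotubes in low serum. Every probe was taken whose target is given as CHRNA1, CHRNB1, CHRND, CHRNE, CHRNG, MUSK, RAPSN or ACHE (Chrna1 to Ache in mouse spelling), which gave 17 of the 45281 probes on the array and covered 8 genes. Probes detected (detection p under 0.01 against the negative-control beads) on both arrays of some group were tested, which kept 16 of the 17. Of these, 9 were detected on all 12 arrays. The probe of Chrne passed only through the embelin cells at 48 h, and the tested probe of Ache also only through that group, whereas the other Ache probe was detected on no array and was not tested.

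The series title gives its subject as gene expression in differentiating C2C12 cells when the acetyltransferase PCAF is inhibited by embelin. The 6 groups held 2 arrays each. They were cells given 10 uM embelin, a plant benzoquinone, and cells given the solvent DMSO, each in growth medium (20% fetal bovine serum) or after 24 h or 48 h of differentiation medium (2% horse serum). All 6 groups were this single line, and the labels name no nerve cells or agrin. Nothing in the labels says whether the 2 samples of a group were separate cultures. The p-values therefore cover only how much these samples varied, and that variation may be technical. For growth medium the labels give 0 h in 1 field and 24 h in another, so the length of exposure there is uncertain.

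The muscle nicotinic receptor is a channel of alpha, beta and delta subunits with a gamma subunit before birth or an epsilon subunit after innervation, and it opens when acetylcholine binds. Nerve-derived agrin binds the receptor Lrp4, which activates the kinase MuSK, and the scaffold rapsyn then holds receptors together in clusters under the nerve ending. Acetylcholinesterase ends the signal by cleaving the transmitter. Myotubes in culture make the subunits without nerve contact, and the myogenic factors of the MyoD family are known to act on subunit promoters through E-boxes.

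Promoter windows are printed for 3 subunits because they include the gamma subunit gene, which had the largest fitted change of the 16 probes between growth medium and 48 h, and the epsilon subunit gene, which did not pass the test in any comparison. They come from RefSeq on GRCm38.p6, which held 6 of the 8 genes. Each lists the bases before the start in the table (250 bases, or fewer where the gene record begins earlier). Capitals mark CANNTG (the E-box) and CCGGAA (a core of the N-box type), searched on both strands. The windows are chr2:73580339-73580588 on the minus strand for Chrna1, chr1:87205561-87205810 on the plus strand for Chrng and chr11:70619214-70619444 on the minus strand for Chrne.
Chrna1: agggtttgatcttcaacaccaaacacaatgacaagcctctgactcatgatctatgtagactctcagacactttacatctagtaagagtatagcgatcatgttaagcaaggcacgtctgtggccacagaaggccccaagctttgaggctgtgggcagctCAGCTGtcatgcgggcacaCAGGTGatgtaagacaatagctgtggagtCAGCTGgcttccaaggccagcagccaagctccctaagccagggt
Chrng: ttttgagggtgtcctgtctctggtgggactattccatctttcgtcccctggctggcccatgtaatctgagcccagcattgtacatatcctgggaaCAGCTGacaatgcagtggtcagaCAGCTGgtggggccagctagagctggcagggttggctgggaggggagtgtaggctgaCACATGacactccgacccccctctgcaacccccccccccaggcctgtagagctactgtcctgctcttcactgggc
Chrne: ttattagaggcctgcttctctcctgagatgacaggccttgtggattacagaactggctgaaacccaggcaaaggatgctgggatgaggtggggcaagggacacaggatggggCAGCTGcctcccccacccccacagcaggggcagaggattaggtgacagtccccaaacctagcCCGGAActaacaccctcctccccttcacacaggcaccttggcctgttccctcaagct
Chrna1 and Chrng each held 3 CANNTG matches, of which 2 were CAGCTG. The Chrnb1 window of 221 bases, which is not printed, held 2 CANNTG and 0 CAGCTG, and Chrnb1 rose too. At least 3 CANNTG matches were found in 12.2% of 32851 windows of 250 bases, and at least 2 of CAGCTG, which is itself a form of CANNTG, in 1.26%. The Chrne window of 231 bases held 1 CANNTG, of the form CAGCTG, and 1 CCGGAA, while 12% of the 250-base windows held a CCGGAA. These matches describe the letters in the windows only.

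Between 15031 and 16314 probes were detected per array, with a median of 42 to 43 beads behind each probe. Replicate 2 of embelin in growth medium stood apart from its group: it lay at -57.9 on the leading principal component, against -83.0 for the other embelin array and -83.5 for both DMSO arrays in growth medium. The root mean square SD between its group's arrays was 0.23 log2 units, against 0.14 to 0.18 in the other groups. The summed signal of 5 myotube markers (Myog, Ckm, Acta1, Myh3 and Mymk) was 13019 on that array, 5129 on the other embelin array and 4540 to 4961 on the DMSO arrays in growth medium. Without that array the 14 probes that had risen over growth medium in embelin cells at 24 h, and the 14 at 48 h, were still called, and Musk ILMN_1259616 was called as well at 48 h. The largest moves of these rises without it, on Chrng ILMN_2707570, are given with their result, as are those of Chrna1 ILMN_1245221 and Chrnb1. Smaller moves on other probes are not all given. Of the myoblast markers, Myod1, Cdh15 and Des were detected on both arrays of every group and Myf5 on none. The motor neuron markers (0 of 5 on the array) and the Schwann cell markers (0 of 5) were not detected on any array. Of the fibroblast markers, Pdgfra was detected in every group and Thy1, Dpt and Tcf21 on no array, with a summed signal at 48 h of 363.3 to 378.1 in embelin cells and 306.8 to 327.3 in DMSO cells. Pparg of the adipocyte markers and Alpl of the osteoblast markers were detected in some groups, and the other markers on those lists in none. The part of these in the results was not tested.

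**Figure D1:**
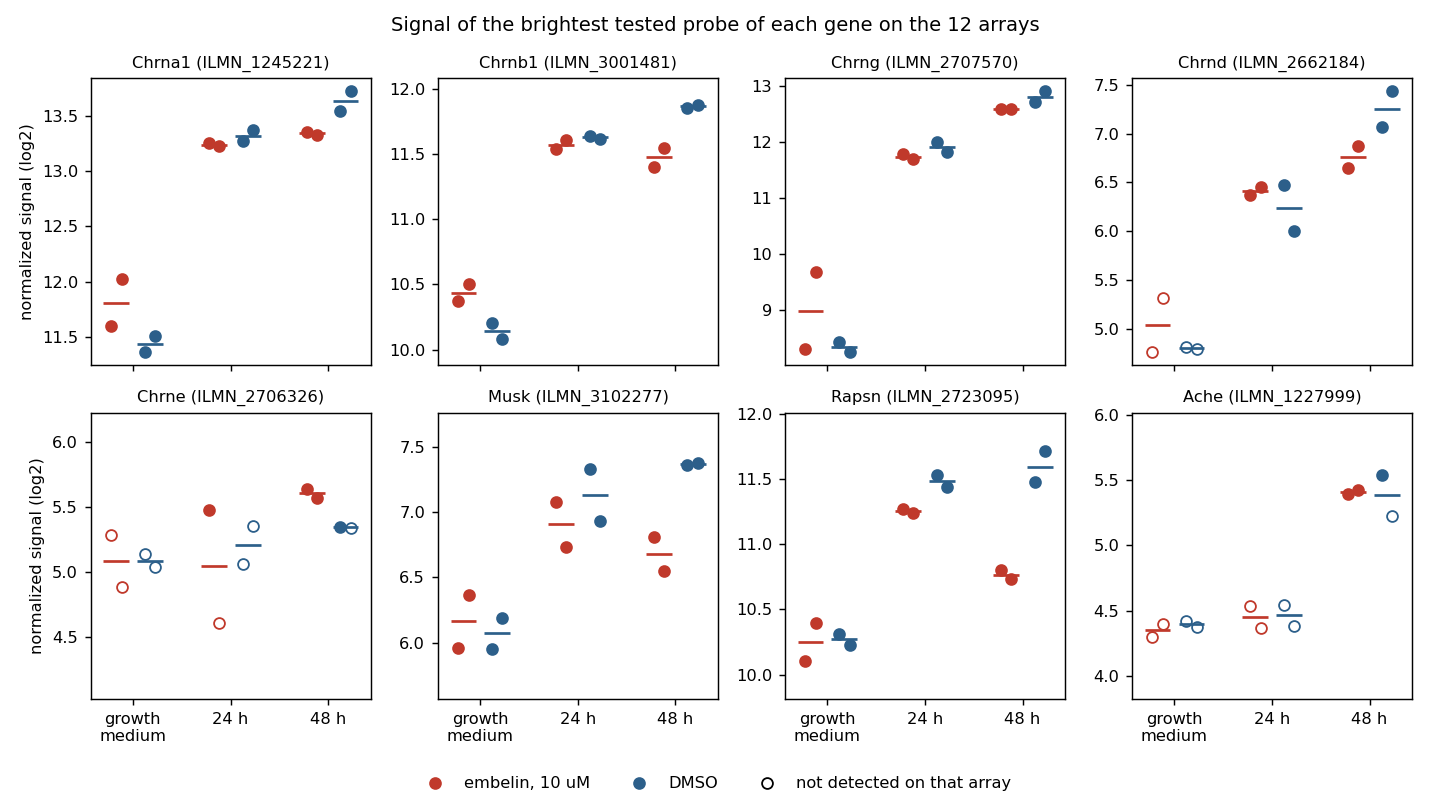
Normalized log2 signal (vertical axis) of the brightest tested probe of each gene on the 12 arrays, by stage (horizontal axis). Points are arrays (embelin left, DMSO right), bars are group means of 2 arrays, and open points were not detected. Signals of Chrna1, Chrnb1, Chrng and Rapsn in growth medium lie below all later arrays, and at 48 h the embelin points of Rapsn (10.80 and 10.73) lie below the DMSO points (11.48 and 11.72).

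All receptor subunit genes but Chrne, along with Musk and Rapsn, rose as the cells differentiated, with or without embelin. At 48 h Rapsn and Musk were lower in embelin cells than in DMSO cells. Rapsn was lower by 0.67 to 0.98 log2 units on its 3 probes and Musk by 0.69 on its brighter probe. Of the subunits, both Chrnb1 probes, 1 of 3 Chrna1 probes and 1 of 2 Chrng probes were lower. For Chrna1 and Chrng these were the dimmest probes, and the brighter ones did not pass. The Chrng call was lost in 19 of 21 alternatives. Neither in growth medium nor at 24 h did any of the 16 probes differ between treatments past the test. Of all probes, 0.00% and 0.0589% were called at these stages, and 18.3% were called lower at 48 h. All differences are log2 differences of normalized signal with the standard error (SE) of the limma fit, n = 2 arrays per group, and Benjamini-Hochberg adjusted p over 16981 probes.

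Chrna1 encodes the alpha subunit, which carries most of the acetylcholine binding site. The probe ILMN_1245221 had normalized log2 signals of 11.60 and 12.03 in growth medium, 13.25 and 13.22 at 24 h and 13.35 and 13.33 at 48 h in embelin cells. In DMSO cells it had 11.37 and 11.51, 13.27 and 13.37, and 13.54 and 13.72 at the same stages. Both treatments thus moved clear of growth medium by 24 h, and the embelin arrays lay below the DMSO arrays at 48 h. In embelin cells Chrna1 rose over growth medium by 1.42 at 24 h (SE 0.14, adjusted p = 1.55e-05, limma) and by 1.52 at 48 h (adjusted p = 5.05e-06). Without replicate 2 of embelin in growth medium these rises were 1.63 and 1.73. The DMSO cells showed a rise of 1.88 at 24 h (adjusted p = 2.6e-06) and of 2.19 at 48 h (adjusted p = 3.46e-07). The step from 24 h to 48 h was 0.10 in embelin cells (adjusted p = 0.641) and 0.31 in DMSO cells (adjusted p = 0.118), and neither passed the test.

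The 3 probes of Chrna1 did not give the same answer for embelin at 48 h. ILMN_1245221 differed by -0.29 (adjusted p = 0.129) and ILMN_2733656 by -0.33 (adjusted p = 0.118), and neither passed. The dim probe ILMN_1239269, with a raw signal of 67.8 to 204.7 over the arrays, fell by 0.95 (SE 0.24, adjusted p = 0.00964). It had 6.33 and 6.20 in embelin cells at 48 h, against 7.60 and 6.84 in DMSO cells. Its groups did not overlap, although the DMSO arrays were 0.76 apart, and the call was lost without DMSO replicate 1 or without embelin replicate 2 at 48 h. Across the 12 arrays ILMN_1245221 correlated with ILMN_2733656 at a Pearson r of 0.995 and with ILMN_1239269 at 0.923, as a description of 12 arrays that share groups.

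Chrnb1 encodes the beta subunit, through which the receptor is linked to rapsyn-based clusters. ILMN_3001481 had 10.37 and 10.50, 11.54 and 11.61, and 11.40 and 11.55 in embelin cells in growth medium, at 24 h and at 48 h. The DMSO cells gave 10.20 and 10.08, 11.64 and 11.62, and 11.85 and 11.88 at these stages. At 48 h both embelin arrays lay below both DMSO arrays, by more than the arrays of a group differed. The difference at 48 h was -0.39 (SE 0.10, adjusted p = 0.0129), a linear change of -23.7%. The other probe, ILMN_2685921, gave -0.41 (SE 0.14, adjusted p = 0.0414). Of 22 alternatives run for ILMN_2685921, 12 kept this call, so it lies near the threshold. In embelin cells Chrnb1 rose over growth medium by 1.14 (ILMN_3001481) and 1.41 (ILMN_2685921) at 24 h and by 1.04 and 1.37 at 48 h, the later rises with adjusted p of 8.91e-06 and 1.09e-05. Without embelin, in DMSO cells, it rose by 1.49 and 1.73 at 24 h and by 1.72 and 2.08 at 48 h, all called.

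Chrnd encodes the delta subunit, and its 2 probes were not detected in growth medium in either treatment. Only lower bounds of the fold can therefore be given over growth medium, from the lowest signal detected there. ILMN_2662184 was at least 1.96-fold higher at 24 h and at least 2.50-fold at 48 h in embelin cells, and at least 1.78-fold and 3.58-fold higher at these times in DMSO cells. All 4 differences were called. From 24 h to 48 h Chrnd measured 0.35 (adjusted p = 0.24) on this probe and 0.27 (adjusted p = 0.328) on ILMN_1229136 in embelin cells, and did not pass. In DMSO cells it rose in that step, by 1.01 (SE 0.20, adjusted p = 0.0043) and by 0.54 (SE 0.19, adjusted p = 0.0496), the smaller rise losing its call in 15 of 21 alternatives. The difference between the steps did not pass on either probe (-0.66, adjusted p = 0.169, and -0.27, adjusted p = 0.56). At 48 h ILMN_2662184 had 6.65 and 6.88 in embelin cells, against 7.07 and 7.43 in DMSO cells. The arrays did not overlap, yet the difference of -0.49 (SE 0.20, adjusted p = 0.0851) did not pass, and ILMN_1229136 gave -0.33 (adjusted p = 0.189).

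The gamma subunit of Chrng belongs to the embryonic receptor, and Chrng had the largest rise of the group. In raw signal ILMN_2707570 had 414.0 and 960.0 in growth medium, 3341 and 2970.4 at 24 h and 5762 and 5651 at 48 h in embelin cells. The DMSO arrays had 424.2 and 408.0, 3794 and 3113, and 6014 and 7012. Apart from replicate 2 of embelin in growth medium, arrays of a group lay close together and stages stood well apart. Over growth medium Chrng rose by 2.76 (SE 0.32, adjusted p = 4.03e-05) at 24 h and by 3.60 (adjusted p = 4.02e-06) at 48 h in embelin cells, which is 12.1-fold. Without replicate 2 in growth medium these rises were 3.44 and 4.29, or 19.5-fold at 48 h. Its rise in DMSO cells was 3.58 (adjusted p = 6.49e-06) and 4.47 (adjusted p = 7.37e-07), or 22.2-fold at 48 h. The difference between these rises at 48 h was -0.87 (adjusted p = 0.198). Without replicate 2 of embelin in growth medium it was -0.18, and without replicate 1 there it was -1.55. At 48 h embelin and DMSO cells differed by -0.22 (95% interval -0.93 to 0.48, adjusted p = 0.624). The dimmer probe ILMN_1213304 gave -0.34 (SE 0.12, adjusted p = 0.0496) there, a call lost in 19 of 21 alternatives.

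The 2 Chrng probes also differed in the size of the rise. ILMN_1213304 had a raw signal of at most 116.7 and was not detected in growth medium, and its rise was at least 1.44-fold in embelin cells and at least 1.86-fold in DMSO cells at 48 h. On ILMN_2707570 the 2 embelin arrays in growth medium were 1.37 apart after normalization, and their raw log2 gap of 1.21 was 16.3 times the error expected from the beads. The difference between treatments in growth medium was 0.65 (SE 0.32, adjusted p = 0.891), and without that array it was -0.04. Without the other embelin array it was 1.33.

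Chrne encodes the epsilon subunit, which takes the place of gamma in innervated muscle. It was detected on 4 of the 12 arrays, at a raw signal of 62.0 to 88.3. In embelin cells ILMN_2706326 had 5.29 and 4.89 in growth medium, 5.48 and 4.61 at 24 h and 5.64 and 5.57 at 48 h, against 5.14 and 5.04, 5.06 and 5.36, and 5.35 and 5.34 in DMSO cells. Arrays of the stages overlapped up to 24 h, and at 48 h the embelin arrays lay just above the DMSO arrays. No comparison passed the test. The nearest was 48 h against growth medium in embelin cells, at an adjusted p of 0.0768, which passed in 5 of 22 alternatives. The probe entered the test only through the embelin cells at 48 h, the higher group there. This value is therefore a description and no support for a rise. Since Chrne was not detected in growth medium, no fitted fold is given for that step.

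Musk encodes the muscle-specific kinase that receives the agrin signal. ILMN_3102277 had 5.96 and 6.37 in growth medium, 7.08 and 6.73 at 24 h and 6.81 and 6.55 at 48 h in embelin cells. The DMSO cells had 5.95 and 6.19, 7.33 and 6.93, and 7.36 and 7.38. Treatments overlapped until 24 h, while at 48 h both embelin arrays lay below both DMSO arrays. The difference at 48 h was -0.69 (SE 0.19, adjusted p = 0.0143), and the call was lost without either DMSO array at 48 h, without embelin replicate 2 at 48 h or under median scaling. ILMN_1259616 was detected on both DMSO arrays at 48 h (6.11 and 5.91) and on neither embelin array (5.27 and 5.22). It was at least 1.58-fold lower in embelin cells (adjusted p = 0.00199), a call kept in all 21 alternatives run for it.

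The time course of Musk was compared between the treatments. In embelin cells ILMN_3102277 rose over growth medium by 0.74 at 24 h (adjusted p = 0.00597) and by 0.52 at 48 h (adjusted p = 0.0325), the later call being lost in 5 of 23 alternatives. In DMSO cells it rose by 1.06 and 1.30, both called. ILMN_1259616 was not detected in growth medium, so its rise is a bound. In embelin cells it was at least 1.18-fold higher at 24 h (adjusted p = 0.00458) and again not detected at 48 h. In DMSO cells it was at least 1.32-fold higher at 24 h and at least 1.52-fold at 48 h, both called. The test of the difference between these rises at 48 h gave -0.78 (adjusted p = 0.0567) on the first probe and -0.94 (adjusted p = 0.00874) on the other, which rests on 3 groups without detection. The step from 24 h to 48 h in embelin cells did not pass on either probe (adjusted p = 0.409 and 0.0506).

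Rapsn encodes rapsyn, the scaffold beneath the receptors, and its 3 probes gave the same course. ILMN_2723095 had 10.11 and 10.40 in growth medium, 11.27 and 11.24 at 24 h and 10.80 and 10.73 at 48 h in embelin cells. In the DMSO cells it had 10.31 and 10.23, 11.53 and 11.44, and 11.48 and 11.72. The embelin arrays lay below the DMSO arrays from 24 h on, and the gap was wider at 48 h. ILMN_2967654 had 9.63 and 9.53 in embelin cells at 48 h, against 10.21 and 10.30 in DMSO cells. ILMN_1235236 had 8.90 and 8.70 in embelin cells, against 9.65 and 9.92 in DMSO cells at that time.

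At 48 h embelin cells had less Rapsn signal by -0.83 (SE 0.12, adjusted p = 0.000521), -0.67 (SE 0.11, adjusted p = 0.000668) and -0.98 (SE 0.12, adjusted p = 0.000168) on these probes in turn. On the linear scale these are changes of -43.7%, -37.3% and -49.4%. At 24 h the differences were -0.23, -0.29 and -0.29, with adjusted p of 0.569, 0.373 and 0.458, and did not pass. In embelin cells Rapsn rose by 0.92 to 1.0 at 24 h over growth medium and then fell between 24 h and 48 h, by 0.49 (adjusted p = 0.0163), 0.43 (adjusted p = 0.0136) and 0.54 (adjusted p = 0.00967). These 3 were the only falls called among the 16 probes between those times. Each lost the call without embelin replicate 1 at 24 h or without replicate 2 at 48 h. ILMN_2723095 lost it also without embelin replicate 2 at 24 h or without replicate 1 at 48 h. Under median scaling ILMN_2723095 and ILMN_2967654 lost it as well. In DMSO cells the same step was 0.11, -0.04 and 0.16, none of them called. The difference between the steps was -0.60 (adjusted p = 0.0515), -0.39 (adjusted p = 0.119) and -0.70 (adjusted p = 0.0275), so it passed on 1 of 3 probes.

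Ache encodes acetylcholinesterase, and it was close to background in these cells. ILMN_1227999 was detected on both embelin arrays at 48 h (5.39 and 5.43) and on 1 of 2 DMSO arrays (5.54 and 5.23), and on no earlier array, where values lay between 4.30 and 4.55. Both treatments thus stood above all earlier arrays at 48 h and overlapped each other. The probe entered the test through the embelin cells at 48 h, so a call of 48 h over earlier stages in embelin cells is a description and no support for a rise. Embelin and DMSO cells differed by 0.03 at 48 h (95% interval -0.25 to 0.31, adjusted p = 0.895). ILMN_1245963 had raw signals of 48.2 to 58.6 and was detected nowhere.

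Embelin was compared with DMSO at each stage over all members. In growth medium limma called 0 of the 16 probes, where 0.00% of all probes were called, and 3 had an unadjusted p under 0.05, beside 968 of 16981 probes. At 24 h it called 0, beside 0.0589% of all probes, and 2 members had an unadjusted p under 0.05, beside 1752 of all probes. At 48 h it called 9, all lower, from 5 genes (Chrna1, Chrnb1, Chrng, Musk and Rapsn), beside 18.3% of all probes called lower and 36.9% in either direction. The median difference of the 16 members was 0.17 in growth medium, -0.09 at 24 h and -0.40 at 48 h, and that of all probes was 0.00 each time. At 48 h both embelin arrays lay below both DMSO arrays for 14 of 16 probes, beside 35.4% of all probes.

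The count of 9 at 48 h depended on single arrays: it was 5 without DMSO replicate 2 and 5 without embelin replicate 2 at 48 h. The Rapsn calls were kept in every alternative run for them (23 for ILMN_2723095 and 22 for each of the other probes). The summed raw signal of the 5 myotube markers, all detected at 24 h and 48 h, was 50607 to 55070 in embelin cells and 62521 to 64257 in DMSO cells at 48 h. At 24 h it was 36657 to 39346 in embelin cells and 38831 to 42309 in DMSO cells. On normalized signal the median difference of the 5 at 48 h was -0.06, with 0 called higher and 1 lower. The part of this in the results was not tested, and in bulk cultures fewer differentiated cells and less RNA per cell cannot be told apart. Among the myogenic factors, Myod1 and Mef2c were lower at 48 h (-0.59, adjusted p = 0.0188, and -1.26, adjusted p = 0.00101), and Myog measured -0.02 (adjusted p = 0.979).

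**Figure D2:**
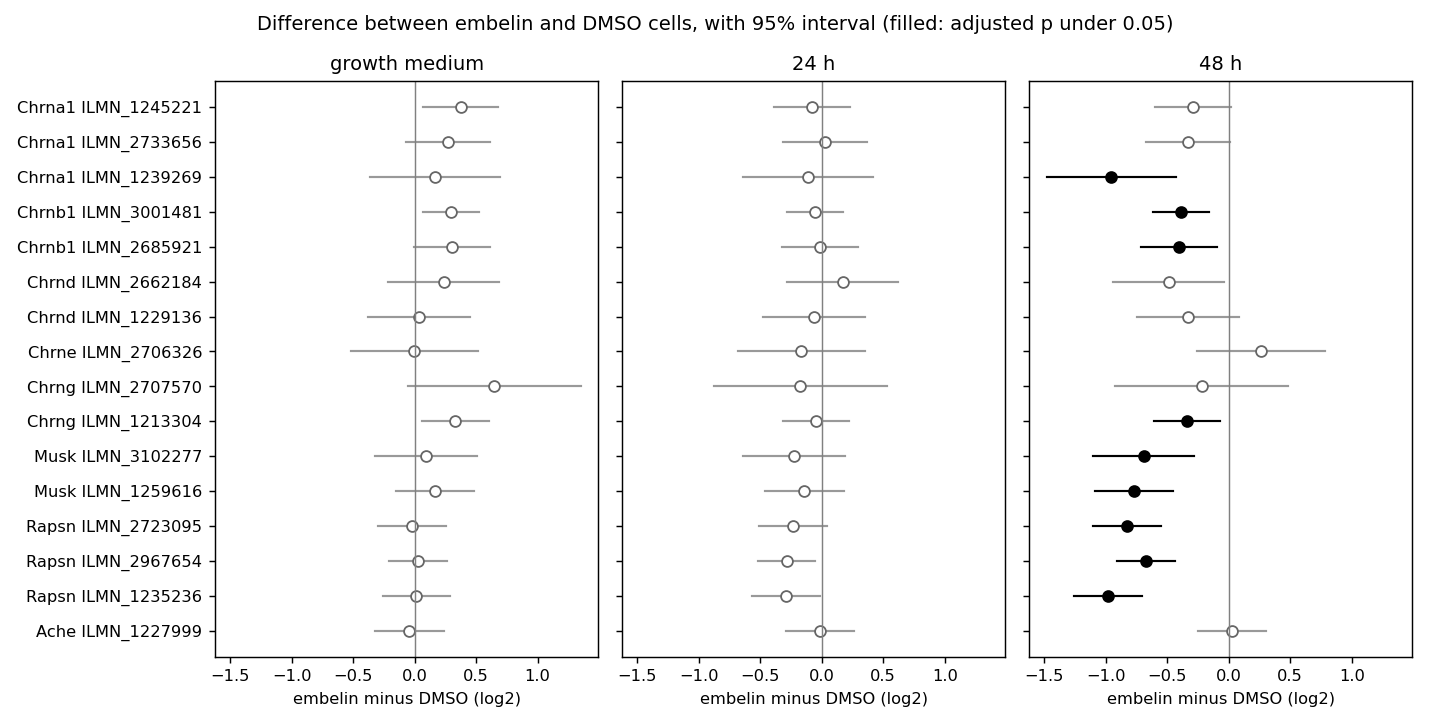
Log2 difference, embelin minus DMSO (horizontal axis), for the 16 tested probes in growth medium, at 24 h and at 48 h, with 95% intervals of the limma fit. Filled points passed the test: 0, 0 and 9 probes, the 9 all to the left of 0 and the 3 Rapsn probes between -0.98 and -0.67.

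Differentiation was followed in both treatments as the course against which these differences stand. In embelin cells 14 of 16 probes were higher than in growth medium at 24 h, beside 26.5% of all probes called higher, and 14 at 48 h, beside 29.9%. In DMSO cells 14 were higher at 24 h, beside 25.2%, and 15 at 48 h, beside 26.7%. The counts at 48 h include Ache. None was called lower in these 4 comparisons. Between 24 h and 48 h limma called 1 member higher (Ache, which entered the test through the higher group, beside 12.6% of all probes) and 3 lower (Rapsn, beside 13.1%) in embelin cells, and 4 higher, beside 14.3%, in DMSO cells (both Chrnd probes, ILMN_1213304 of Chrng, and Ache). The median rise of the members at 48 h in DMSO cells was 1.73, where all probes had a median of -0.09.

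**Figure D3:**
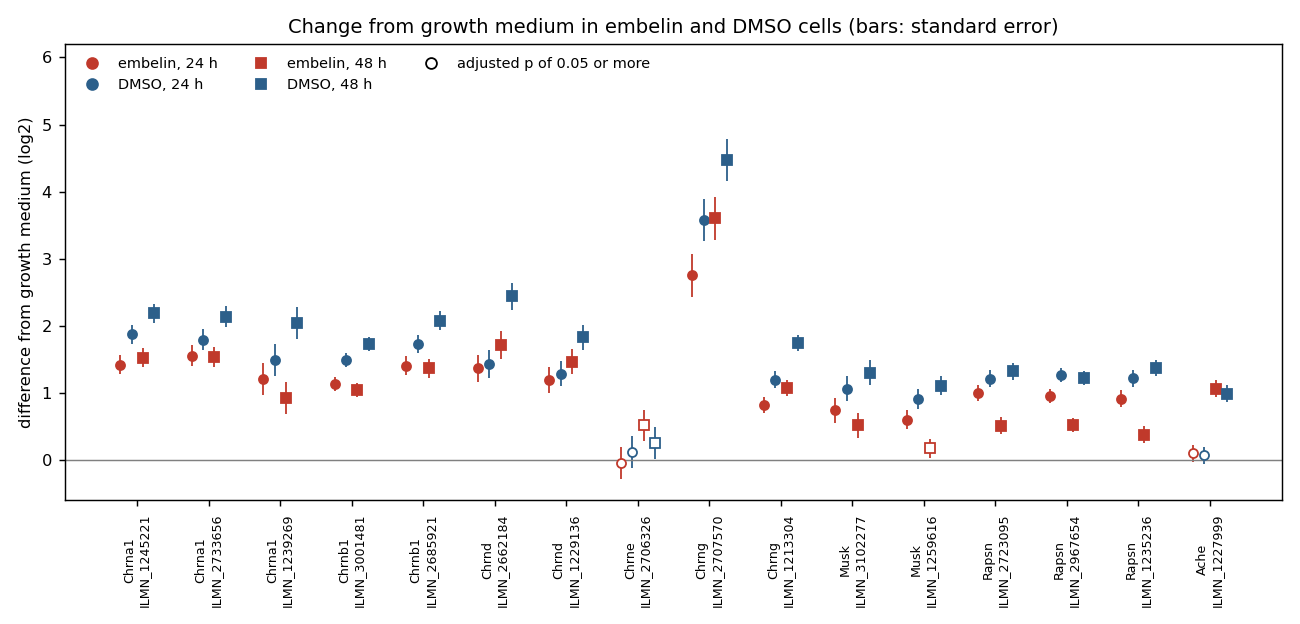
Log2 difference from growth medium (vertical axis) at 24 h (circles) and 48 h (squares) in embelin (red) and DMSO (blue) cells, with standard errors, for the 16 tested probes (horizontal axis). Chrng ILMN_2707570 has the largest rise (3.60 in embelin and 4.47 in DMSO cells at 48 h), and for Rapsn the red squares lie below the red circles. Open symbols did not pass the test.

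Whether the embelin difference itself changed with stage was tested as an interaction over all arrays. From growth medium to 24 h limma called 0 of 16, where 0.00% of all probes were called, and 2 members had an unadjusted p under 0.05, beside 1205 of all probes. From growth medium to 48 h it called 9, all lower, beside 11.2% of all probes called lower. These were 2 Chrna1 probes, both Chrnb1 probes, ILMN_1213304 of Chrng, ILMN_1259616 of Musk and the 3 Rapsn probes, between -1.12 and -0.66. Of these, ILMN_1213304 and ILMN_1259616 were not detected in growth medium, and ILMN_1239269 of Chrna1 was detected there on 1 embelin array only. The call of ILMN_1239269 was lost in 13 of 21 alternatives. Without replicate 2 of embelin in growth medium the count was 6, and without replicate 1 it was 13. From 24 h to 48 h it called 1, lower, beside 6.63% of all probes. The embelin comparisons at the stages and these interactions share arrays and are not independent of each other.

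Members were compared with each other across the 12 arrays, taking the brightest probe of each. The correlations of Chrna1 with Chrnb1 (r = 0.989), Chrng (0.988) and Chrnd (0.957) were high, as was that of Chrnd with Chrng (0.974), and Musk with Rapsn gave 0.953. Rapsn correlated with Chrng at 0.844 and with Ache at 0.359, and Chrne lay between 0.116 and 0.631 with the other members. These r describe 12 arrays in 6 groups that share stage, and carry no test. By the same measure over 9393 genes, the genes most like Chrng were Tnnc1, Myl1 and Acta1 (0.998 to 0.999), which encode troponin, myosin and actin of muscle. Chrna1 lay nearest to Pdlim3, Pkia and Zfp36l1, Chrnb1 to Sgca, Acsl3 and Klhl30, and Chrnd to S100pbp, Map4 and Cpeb3, all at 0.988 to 0.997. Rapsn lay nearest to Cerox1, Smarcd3 and Camta1 (0.989 to 0.991), and Musk to Serinc2, Dnal1 and Myh1 (0.971 to 0.982). Ache was nearest to Limch1, Tmem30a and Hectd2os (0.966 to 0.976) and Chrne was near Frg2f1 and Ap4e1 (0.825 and 0.811). For Chrng 8.87% of all these genes exceeded an r of 0.9, so likeness of this kind was common.

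Other genes of the pathway were counted with the brightest probe of each gene. The counts stand beside 18.6% of all probes called higher and 18.3% lower for embelin at 48 h, and 26.7% higher and 33.8% lower for DMSO cells at 48 h over growth medium. Of the agrin and MuSK signalling genes, 2 of 17 tested were higher and 2 lower with embelin at 48 h. Agrn (agrin) was lower by -0.36 (adjusted p = 0.0478) and the calpain gene Capn1 by -1.03 (adjusted p = 0.000763), while the chaperone gene Hsp90b1 was higher by 0.76 and the GTPase gene Rac1 by 0.57. In DMSO cells from growth medium to 48 h, 5 of the 17 were higher and 4 lower. Lrp4, the agrin receptor, was higher by 2.45 (SE 0.23, adjusted p = 5.1e-06), Capn1 by 1.10 and Agrn by 1.04, and Dok7, an activator of MuSK from inside the cell, was at least 1.83-fold higher. The list medians were 0.03 for embelin and 0.07 for DMSO differentiation, beside 0.00 and -0.09 for all probes.

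Scaffold and basal lamina genes moved in both directions with embelin at 48 h, 4 of 15 tested being higher and 3 lower, beside 18.6% and 18.3% of all probes. The nidogen genes Nid1 and Nid2 were higher by 1.79 (adjusted p = 8.13e-06) and 1.18 (adjusted p = 0.0449). Dtna, the dystrobrevin gene, was lower by -1.06 (adjusted p = 8.86e-05) and Sntb1, a syntrophin gene, by -0.74 (adjusted p = 0.00581). In DMSO cells 10 of the 15 were higher at 48 h than in growth medium and 3 lower, among them Nid2 (3.20), Dag1 (2.57) and Sntb1 (at least 3.10-fold). The 10 include Utrn, which passed the detection filter only through DMSO cells at 48 h, the higher group. Of the receptor assembly genes, 1 of 11 was higher and 3 lower with embelin, beside the same shares. Tmem35a, which encodes a chaperone of nicotinic receptors, was at least 1.32-fold lower (adjusted p = 0.00241), Cav3 was lower by -0.80 and Lmo7 by -0.42, and the chaperone gene Calr was higher by 0.62. In DMSO cells 5 of the 11 were higher and 0 lower, led by Cav3 (at least 10.3-fold), Lmo7 (2.80), Tmem35a (at least 1.27-fold) and Hspa5 (0.60). Of the esterase partners only 2 of 5 genes could be tested, and P4hb, a disulfide isomerase gene, was higher with embelin by 1.32 (adjusted p = 8.35e-06), while both rose in DMSO cells (Prnp by 0.59 and P4hb by 0.53).

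Regulators upstream of the synapse were counted the same way. Of the neuregulin and ETS factor genes, 0 of 10 were higher and 5 lower with embelin at 48 h, beside 18.6% and 18.3% of all probes, with a list median of -0.38. The 5 include Erbb3, which passed the detection filter only through DMSO cells at 48 h, the higher group. Etv1 was lower by -1.22 (adjusted p = 0.00282), Etv5 by -1.08 (adjusted p = 0.000581), Etv4 by -0.65 and Egr1 by -0.52, Etv1 and Etv4 being detected on 1 of the 2 embelin arrays. In DMSO cells 3 of these 10 were higher and 3 lower at 48 h, and Etv4 fell by 2.42 while Egr1 (1.75) and Erbb2 (1.26) rose, and the count of higher genes includes Erbb3. Of the genes tied to electrical activity, 2 of 11 were higher and 5 lower with embelin, beside the same shares. The 5 include Camk2b and Scn4a, which also passed only through DMSO cells at 48 h. Camk2a was lower by -0.77 and Camk2d by -0.58, and Runx1, which denervation induces, was higher by 0.69. In DMSO cells 8 of the 11 were higher and 2 lower, led by Camk2a (at least 9.34-fold), Ncam1 (2.20) and Hdac5 (1.65), with Camk2b and Scn4a again in the count. None of the 11 other nicotinic subunit genes was detected on both arrays of a group.

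Of the myogenic and E-box factor genes, 3 of 11 were higher and 4 lower with embelin at 48 h, beside 18.6% and 18.3% of all probes. Id2, an inhibitor of E-box binding, was higher by 1.61 (adjusted p = 0.00179), with detection on 1 of the 2 DMSO arrays, and Tcf3, an E-box protein gene, by 0.77. The 4 lower genes include Myf6, which passed the detection filter only through DMSO cells at 48 h and so is given no test of its own. In DMSO cells 7 of the 11 were higher and 3 lower, with Myog up by 4.75, Mef2c by 4.71, Id2 at -2.53 and Id3 at -2.50. The count of higher genes again includes Myf6, which passed the filter only through the higher group. These counts are descriptions of lists of unequal kind, and nothing particular to a list was tested.

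**Figure D4:**
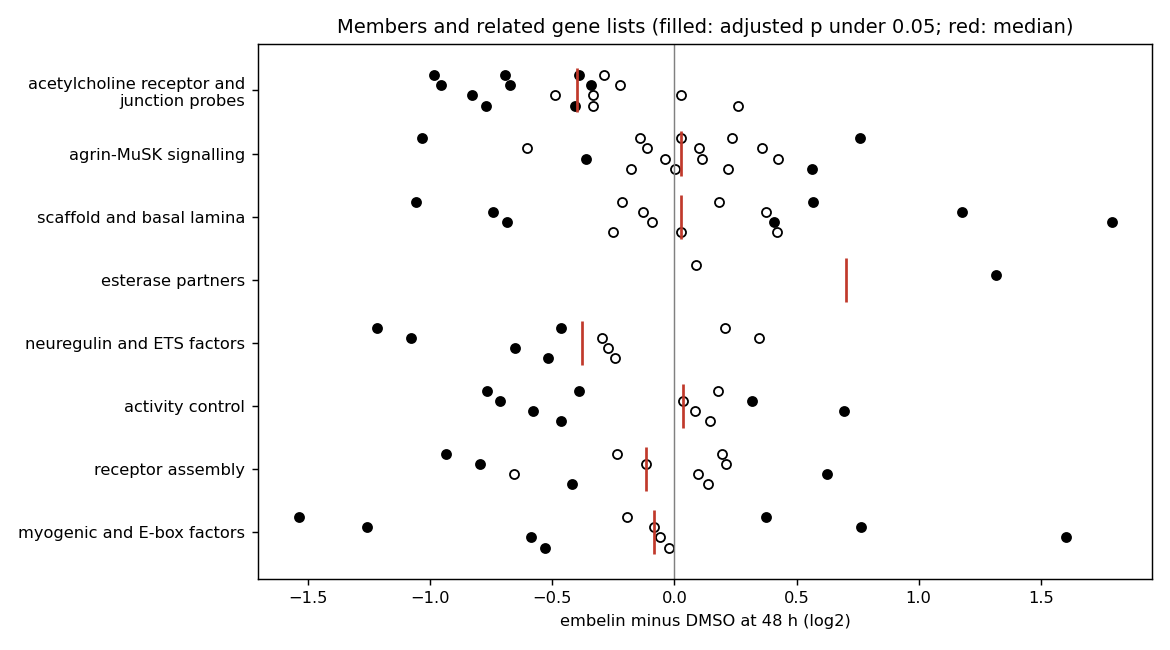
Log2 difference, embelin minus DMSO at 48 h (horizontal axis), for the 16 member probes and for the genes of 7 related lists (rows), with 1 point a probe or gene. Filled points passed the test and red lines are medians, -0.40 for the members, -0.38 for neuregulin and ETS factors and 0.03 for agrin and MuSK signalling.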

How the data were processed

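RNA of 12 samples was hybridised to Illumina MouseWG-6 v2.0 R3 arrays, 2 per group. The intensity values deposited are mean bead signals from GenomeStudio, version 2010.2 per the submitters' processing notes and 1.8.0 per the file headers, with no normalization per the file headers. The deposited table also gives a detection score, 1 minus the detection p, and the count of beads per probe. The deposited series matrix holds log2 values, which matched, for 100% of values within 0.006, the log2 signal after subtracting each array's 75th percentile and then each probe's median. Column medians lay between -0.14 and 0.09, and they were used only as an alternative. The labels name an Agilent labelling kit, while headers and probes are Illumina's, which were followed.

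Background correction, quantile normalization and the log2 step were done by neqc (offset 16) in limma 3.58.1 under R 4.3.3. A probe was kept (16981 were) if some group had it detected, at p under 0.01, on both arrays. The 6 group means were fitted with lmFit and eBayes (6 residual and 4.66 prior degrees of freedom), with 12 contrasts and a Benjamini-Hochberg adjusted p under 0.05 as the call. Different probes of a gene were kept apart. The scripts were tested on simulated data. A probe detected on no array of a group has a bound: the brighter group's mean over the dimmer group's mean of, per array, the higher of the lowest detected signal and the probe's own. Alternatives were other scaling, offset 50, the series matrix, other detection filters, a trended robust prior, 1 probe a gene, a replicate block, only the groups compared and leaving out each array. Symbols were updated through RefSeq genes of GRCm38.p6. Probe sequences were not used here, so what else a probe may bind was not analysed. Plots were drawn with matplotlib 3.10.9 in Python 3.11.15, using pandas 2.3.3 with numpy 2.4.6.

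The text names every probe of the 8 genes, up to 4 called genes of each pathway list with the largest difference in embelin against DMSO at 48 h or in DMSO cells at 48 h, Myod1, Myog and Mef2c, and the 3 genes most like each member. A few genes that this rule selects are not reported here. The members and lists were chosen with earlier results of these data known, and no list is independent evidence.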

Additional observations from a re-analysis of the deposited data

Results flagged for a closer look

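For 10 results the embelin difference itself differed between stages in the interaction test of limma. Between growth medium and 48 h it changed by -0.66 (Chrna1 ILMN_1245221), -1.12 (Chrna1 ILMN_1239269), -0.68 (Chrnb1 ILMN_3001481), -0.71 (Chrnb1 ILMN_2685921) and -0.67 (Chrng ILMN_1213304). It changed by -0.94 for Musk ILMN_1259616 and by -0.81, -0.70 and -1.0 for Rapsn ILMN_2723095, ILMN_2967654 and ILMN_1235236. Between 24 h and 48 h it changed by -0.70 for Rapsn ILMN_1235236. Beside these, 11.2% of all probes were called lower from growth medium to 48 h and 6.63% from 24 h to 48 h. In growth medium the flagged probes measured between -0.02 and 0.37 (embelin minus DMSO) and at 48 h between -0.98 and -0.29. Chrng ILMN_1213304 and Musk ILMN_1259616 were not detected in growth medium, and Chrna1 ILMN_1239269 was detected there on 1 embelin array only. The call to 48 h was lost in 13 of 21 alternatives for Chrna1 ILMN_1239269 and in 10 of 23 for ILMN_1245221. It was lost in 7 of 22 for Chrnb1 ILMN_2685921 and in 6 of 21 for Chrng ILMN_1213304. Chrnb1 ILMN_3001481 and Musk ILMN_1259616 kept it in every alternative. Without replicate 2 of embelin in growth medium, the array that stood apart, 6 of the 9 growth-medium results kept the call (Chrnb1 ILMN_3001481, Chrng ILMN_1213304, Musk ILMN_1259616 and the 3 Rapsn probes). The cause was not tested.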

How the results depend on the processing

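Each probe's difference was recomputed under 23 alternatives, 12 of which leave out an array. Of 4236 values, 4029 kept their side of the threshold, 124 lost a call, 83 gained a call and 0 reversed a called direction, while 73 uncalled values changed sign. Every rise over growth medium in DMSO cells kept its call.

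Counts of member probes called moved by over 1.5 times as follows, with fewer members tested for probes detected on all arrays (9) and for 1 probe a gene (8), which bounds those counts. The cause was not tested elsewhere. With 1 probe a gene the counts were 3 of embelin against DMSO at 48 h, 6 and 7 in DMSO cells at 24 h and 48 h over growth medium, 2 between 24 h and 48 h, 6, 7 and 2 for the same steps in embelin cells, and 3 for the interaction from growth medium to 48 h. Of all genes in that setting, 39.7% were called in either direction for embelin at 48 h and 23.9% for that interaction. The shares were 57.6%, 62.0% and 32.7% for the DMSO steps and 57.2%, 63.1% and 28.7% for the embelin steps. With probes detected on all arrays the member counts were 9 and 9 over growth medium in both treatments, 1 between 24 h and 48 h in DMSO cells and 2 for the interaction from 24 h to 48 h. Of all probes in that setting, 57.8% to 64.0% were called over growth medium. The shares were 32.4% for that DMSO step and 12.2% for that interaction. Between 24 h and 48 h in DMSO cells, 7 were called with 75th percentile scaling and 7 with the series matrix, beside 27.0% of all probes in each. The interaction from growth medium to 48 h gave 5 under median scaling, beside 16.8% of all probes. That from 24 h to 48 h gave 0 under median scaling, 3 with only the groups compared, and 2 each with 75th percentile scaling, offset 50, the series matrix and the trended robust prior. Of all probes, 8.22% were called there under median scaling and 11.4% to 15.2% in those other settings.

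Leaving out each array gave 0 to 2 calls for embelin in growth medium, 0 to 0 at 24 h and 5 to 10 at 48 h. In DMSO cells it gave 14 to 14, 15 to 15 and 2 to 7 calls for 24 h and 48 h over growth medium and for 48 h over 24 h, and in embelin cells 13 to 14, 11 to 15 and 1 to 6. The interactions gave 0 to 1, 5 to 13 and 0 to 3. The 2 calls in growth medium came without embelin replicate 1 there, when the array that stood apart was its only array (Chrna1 ILMN_1245221 at 0.59 and Chrng ILMN_2707570 at 1.33). The 2 calls between 24 h and 48 h in DMSO cells came without DMSO replicate 1 at 24 h, and the 1 in embelin cells without embelin replicate 2 at 48 h. The 7 calls between 24 h and 48 h in DMSO cells came without either embelin array in growth medium. The interaction from 24 h to 48 h gave 3 without either of those arrays, 2 without DMSO replicate 1 at 48 h, and 0 without any of the 24 h arrays or without embelin replicate 2 at 48 h. The 1 call in the interaction to 24 h came without embelin replicate 1 in growth medium. The interaction to 48 h gave 5 without DMSO replicate 2 in growth medium or embelin replicate 2 at 48 h. A lone array is assumed to vary like the other groups.

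Median scaling moved the median of all probes to -0.32 in DMSO cells at 48 h over growth medium, and the share of higher calls to 28.6%, against 44.1% with quantiles. For embelin at 48 h that share was 62.3%, against 50.4%, for DMSO cells at 24 h 28.1%, against 45%, and for embelin cells at 24 h and 48 h 32.6% and 37.2%, against 47.6% and 48.6%. Pathway lists were not recomputed under other scalings. Deviations of same-numbered arrays from their group means correlated at -0.02 to 0.24 over 15 pairs of groups, 7 of them over 0.1. Among the 24 h and 48 h groups all 6 pairs lay between 0.14 and 0.24, a hint from the data that same-numbered arrays there deviate together. Since pairs with growth medium did not all exceed 0.1 and the labels name no shared batch, the samples were not taken as paired. With the replicate number as a block, 8 probes were called for embelin at 48 h and 3 between 24 h and 48 h in DMSO cells, and the other counts were the same. The number of arrays limits the precision, and Chrne, Ache and the dim probes of Chrnd, Chrng and Musk lay near background.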

Other observations

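Bead error covers the beads within arrays and not the variation between samples. Replicate gaps of the members over 4 times the bead error were counted after the values were seen. They were found for 5 probes in embelin cells in growth medium (Chrna1 ILMN_2733656 at 4.27 times and ILMN_1239269 at 5.12 times, Chrnd ILMN_2662184 at 4.58 times, Chrng ILMN_2707570 at 16.3 times and Musk ILMN_1259616 at 4.05 times) and for 2 in DMSO cells at 24 h (Chrng ILMN_2707570 at 4.39 times and Rapsn ILMN_2967654 at 4.35 times). In each of the 5 embelin cases replicate 2, the array that stood apart, was the higher one in raw signal. Of these, Chrnd ILMN_2662184 and Musk ILMN_1259616 were detected on neither of the 2 arrays and Chrna1 ILMN_1239269 on 1. The lowest signal of any probe was 39.8 on replicate 2 and 32.3 on replicate 1. The cause of these gaps was not tested.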
